A study of Bos taurus with 28 samples.

Results

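PTGDS, PLA2G4A, PTGES and PTGIS are 4 genes of prostaglandin synthesis that were measured in the uterus of heifers after insemination with bull semen. They were taken by their Ensembl IDs (PTGDS ENSBTAG00000015074, PLA2G4A ENSBTAG00000013298, PTGES ENSBTAG00000019453 and PTGIS ENSBTAG00000017537), and they are 4 of 24596 gene IDs in each count table, 19458 of which had a read in at least 1 heifer. The study asked how the endometrium responds to semen, and whether the response differs with the field fertility of the bull. HF heifers (n = 10) received frozen-thawed semen from 5 high fertility bulls, LF heifers (n = 10) received frozen-thawed semen from 5 low fertility bulls, and CTRL heifers (n = 8) were not inseminated. Each bull was used in 2 heifers, 1 in each of 2 study replicates, so 2 heifers of a treatment share a semen donor. All heifers, CTRL included, had their cycle synchronised with a progesterone device, gonadotrophin-releasing hormone and prostaglandin F2α, and received a further dose of gonadotrophin-releasing hormone at the time of insemination. The age of the heifers was not used here, and the sources disagree on breed, since the sample labels give Holstein-Freisan for all 28 and the animal list of the study gives crosses of several beef breeds. The endometrium of the intercaruncular area, on the side of ovulation, was cut away from the muscle layer 12 h after insemination, and 1 biopsy of each heifer was sequenced. Single heifers are called by their treatment with a number, as in HF1 or CTRL8. A biopsy holds several cell types, so a higher level of a transcript from more cells of a type and one from more RNA per cell cannot be told apart.

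Prostaglandins are lipid signals made from arachidonic acid. PLA2G4A, the cytosolic phospholipase A2, releases arachidonic acid from membrane lipids, and the cyclooxygenases turn it into a common unstable intermediate. Terminal synthases then decide which prostanoid is formed. PTGES makes prostaglandin E, PTGDS, a lipocalin that also carries small lipids, makes prostaglandin D, and PTGIS makes prostacyclin, a product typical of vascular and smooth muscle cells. In the ruminant uterus, prostaglandin E and prostaglandin F are known for their part in contraction, in inflammation, in the life span of the corpus luteum and in early pregnancy. The cyclooxygenase genes PTGS1 and PTGS2 carry no name among the IDs at hand and were not analysed here.

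Expression is given as normalised read count (CPM), the count of a gene relative to the total of its library, scaled by the trimmed mean of M-values method over all 28 heifers. CPM is not divided by transcript length, so levels of different genes were not compared. Total counts ranged from 14872812 to 25633259 per heifer, and the lowest count of a member in any heifer was 1483 for PTGDS, 339 for PLA2G4A, 58 for PTGES and 263 for PTGIS. Counting error alone therefore gives a coefficient of variation of 13.1% at the lowest PTGES count and of at most 6.17% for the other 3 genes. All 4 genes passed the filter on low counts in each comparison. Differences are given as log2FC, the log2 of the fold change, and its standard error (SE). They were tested by the quasi-likelihood test of edgeR over all genes and, as an alternative, by DESeq2, with Benjamini–Hochberg adjustment and a threshold of 0.05. Gene names were at hand only for IDs with a small p-value in the study's own LF against CTRL table or among its leading genes, and the members carry a name for the same reason. An unadjusted edgeR p under 0.05 was met by 44.6% of IDs with a name and 1.28% of the others in LF against CTRL heifers, where small p-values of named genes were thus chosen. In HF against CTRL heifers, which share the CTRL animals with that table, it was met by 38.1% and 13.6%, and in HF against LF heifers by 10.4% and 7.64%, so the rank of a member among all genes is a description.

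The mean level of PTGDS was highest in HF, intermediate in LF and lowest in CTRL heifers. In HF heifers PTGDS had 221 CPM at the lowest, 303 at the median and 554 at the highest. In LF heifers it had 109 CPM at the lowest, 194 at the median and 423 at the highest. In CTRL heifers the lowest value was 88.8, the median 145 and the highest 189 CPM. All 10 HF heifers lay above all 8 CTRL heifers, while LF heifers overlapped with both other treatments, with 6 of 10 above every CTRL heifer and 7 of 10 below every HF heifer. Of 14885 genes tested in HF against CTRL heifers, 3 (0.0202%) were higher without overlap and 2 (0.0134%) were lower without overlap.

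PTGDS was 2.18-fold higher in HF than in CTRL heifers (log2FC 1.13, SE 0.18), the smallest p-value of all genes in edgeR, and the difference missed the threshold there (edgeR adjusted p = 0.0650). DESeq2 called it higher (adjusted p = 2.70e-05), also in each of 18 fits that left out 1 heifer. In edgeR it passed the threshold without CTRL2 or without CTRL6 (adjusted p 0.0203 at the lowest of 18 fits). In this comparison edgeR called 0 of 14885 genes at the adjusted threshold (0%) and 2386 (16%) at an unadjusted p under 0.05, and DESeq2 called 328 of 15459 (2.12%). LF heifers had a log2FC of 0.54 over CTRL heifers (SE 0.22, edgeR adjusted p = 0.874, DESeq2 adjusted p = 0.717). In LF against CTRL heifers edgeR called 0 of 14849 genes (0%), with 839 (5.65%) at an unadjusted p under 0.05, and DESeq2 called 2 of 19179 (0.0104%). Between the inseminated treatments, PTGDS had a log2FC of 0.58 in HF over LF heifers (SE 0.20, edgeR adjusted p = 0.491, DESeq2 adjusted p = 0.281). Every one of the 10 HF heifers exceeded the LF median. DESeq2 called this difference in 1 of 20 fits that left out 1 heifer, the one without LF7 (log2FC 0.74, adjusted p = 0.0227). In HF against LF heifers edgeR called 0 of 14793 genes (0%), with 1171 (7.92%) at an unadjusted p under 0.05, and DESeq2 called 27 of 16625 (0.162%). The intermediate LF level was thus not distinguished by either test from its neighbours in the order, and the comparisons with CTRL share the same 8 heifers.

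**Figure D1:**
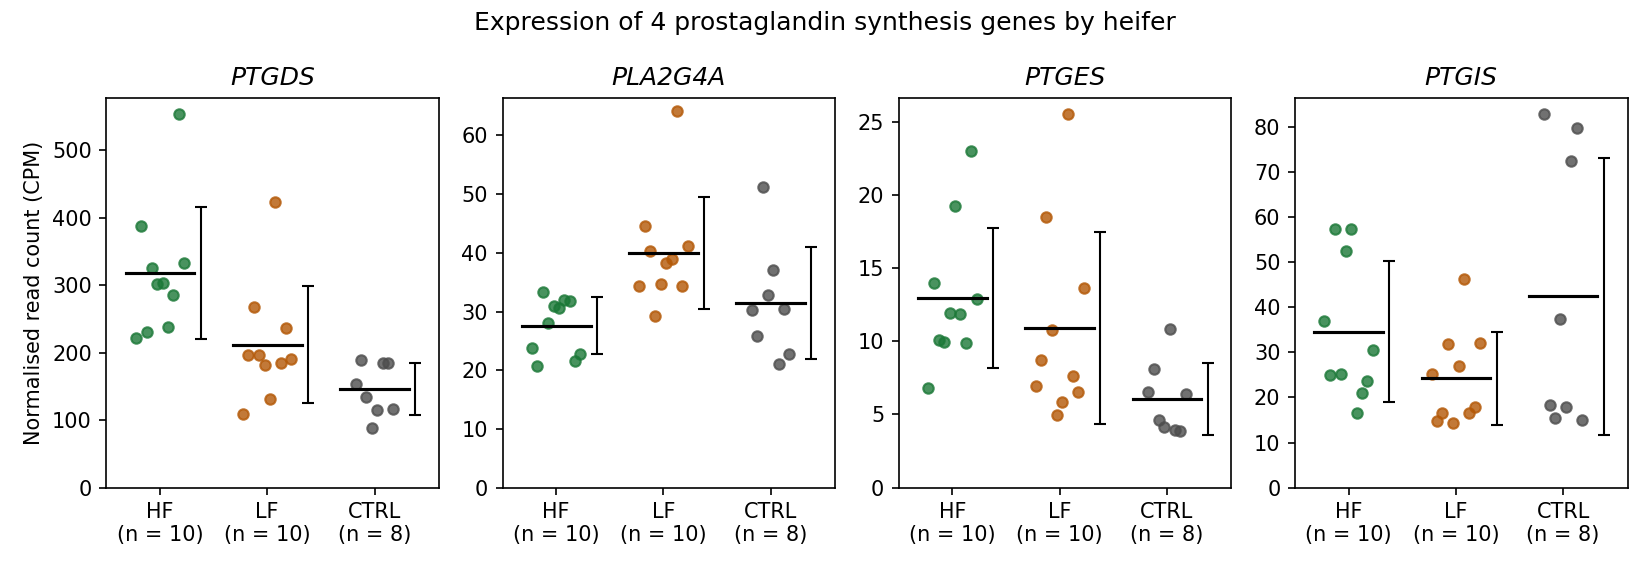
Normalised read count (CPM, linear y axes from 0) of the 4 genes by treatment (x axis, HF, LF, CTRL). Points are single heifers, lines are means and the bars beside them 1 SD. In the PTGDS panel the lowest HF heifer (221 CPM) sits above the highest CTRL heifer (189 CPM).

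PTGES was the other member with a DESeq2 call in HF against CTRL heifers. It had 6.80 CPM at the lowest, 11.9 at the median and 23.0 at the highest in HF heifers. In LF heifers the lowest value was 4.99, the median 8.15 and the highest 25.5 CPM. In CTRL heifers the lowest value was 3.90, the median 5.51 and the highest 10.9 CPM. The CTRL median was exceeded by all 10 HF heifers and the highest CTRL value by 6 of 10, so the groups overlapped. The log2FC of HF over CTRL heifers was 1.10 (SE 0.25, edgeR adjusted p = 0.118, DESeq2 adjusted p = 0.00475). With the breed of the heifer as a covariate the DESeq2 call was lost (log2FC 1.25, DESeq2 adjusted p = 0.0658). Breeds were not evenly spread, with 4 Charolais crosses among HF and 1 among CTRL heifers, and Belgian blue crosses in HF heifers only. DESeq2 called PTGES in each of 18 fits that left out 1 heifer, edgeR only without CTRL2 (adjusted p = 0.0499). LF over CTRL heifers gave 0.86 (SE 0.32, edgeR adjusted p = 0.874, DESeq2 adjusted p = 0.640), with 9 of 10 LF heifers above the CTRL median. HF and LF heifers overlapped, with 9 of 10 HF heifers above the LF median (log2FC 0.24, SE 0.28, edgeR adjusted p = 0.913, DESeq2 adjusted p = 0.904). Of the LF heifers, 3 lay below every HF heifer and 1 above every HF heifer.

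2 markers of other cell types were also called in HF against CTRL heifers by DESeq2, which called 328 of 15459 genes (2.12%). None of the 6 smooth muscle, 2 epithelial or 2 macrophage and monocyte markers that carry a name was called. Markers carry a name for the same reason as the members, which favours small p-values, so this count is a description. VIM, an intermediate filament of stromal cells and the 1 of 8 listed stromal fibroblast markers that carries a name, had 2120 to 3071 CPM in HF, 1568 to 3173 CPM in LF and 1351 to 2471 CPM in CTRL heifers, and it was higher in HF than in CTRL heifers (DESeq2 log2FC 0.39, SE 0.11, DESeq2 adjusted p = 0.0316, edgeR adjusted p = 0.158). UPK3B, the 1 of 5 listed mesothelial markers that carries a name, had 5.75 to 9.09 CPM in HF, 6.84 to 9.72 CPM in LF and 7.37 to 15.9 CPM in CTRL heifers, and it was lower in HF than in CTRL heifers (DESeq2 log2FC −0.53, SE 0.15, DESeq2 adjusted p = 0.0357, edgeR adjusted p = 0.157). Their part in the differences of PTGDS and PTGES was not tested. No marker listed for endothelium, neutrophils or mast cells carries a name.

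PLA2G4A, the enzyme at the start of the pathway, had another order, with the highest mean in LF heifers. It had 20.7 CPM at the lowest, 29.4 at the median and 33.3 at the highest in HF heifers. LF heifers had 29.2 CPM at the lowest, 38.6 at the median and 64.2 at the highest. CTRL heifers had 21.1 CPM at the lowest, 30.3 at the median and 51.2 at the highest. In the direct comparison, all 10 HF heifers lay below the LF median, 9 of 10 LF heifers lay above every HF heifer, and CTRL heifers spread over the range of both. PLA2G4A was lower in HF than in LF heifers in DESeq2 (log2FC −0.55, SE 0.14, DESeq2 adjusted p = 0.0489) and the difference missed the threshold in edgeR (log2FC −0.55, SE 0.13, edgeR adjusted p = 0.357). DESeq2 called 14 of 16625 genes (0.0842%) lower in this comparison. The call lies close to the threshold, since DESeq2 made it in 8 of 20 fits that left out 1 heifer (adjusted p 0.0193 to 0.145 over all 20 fits). DESeq2 lost the call without HF1, HF2, HF4, HF6, HF9, HF10, LF1, LF2, LF3, LF6, LF8 or LF10. Against CTRL heifers, neither HF (log2FC −0.19, SE 0.16, edgeR adjusted p = 0.571, DESeq2 adjusted p = 0.551) nor LF heifers (0.35, SE 0.17, edgeR adjusted p = 0.874, DESeq2 adjusted p = 0.838) passed either test.

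Epithelial markers had the same order of treatments as PLA2G4A between HF and LF heifers. Of 10 epithelial markers listed, the 2 that carry a name are KRT8, a keratin of simple epithelia, and ESRP1, an epithelial splicing regulator. Their summed level was 117 to 282 CPM in HF, 185 to 298 CPM in LF and 98.6 to 265 CPM in CTRL heifers, and neither was at 0 in any treatment. Their log2FC of HF over LF heifers was −0.52 for KRT8 (edgeR adjusted p = 0.450, DESeq2 adjusted p = 0.181) and −0.32 for ESRP1 (edgeR adjusted p = 0.571, DESeq2 adjusted p = 0.456). With the mean log2 CPM of both markers as a covariate, the log2FC of PLA2G4A in HF over LF heifers was −0.31 in edgeR (SE 0.15, adjusted p = 0.996) and −0.31 in DESeq2 (SE 0.16, adjusted p = 0.999996), so its size fell and the DESeq2 call was lost. Within the 10 HF heifers, PLA2G4A followed the mean of the markers (Pearson r = 0.812, permutation p = 0.00168, adjusted over 54 relations 0.0302, Spearman rho = 0.891, permutation p = 0.00114, adjusted 0.0308), and r was 0.789 without the 2 heifers farthest from the median of the markers. Within the 10 LF heifers r was 0.269 (permutation p = 0.440, adjusted 0.767, rho = 0.285, permutation p = 0.425, adjusted 0.720), with r = 0.297 without the 2 farthest heifers. Within the 8 CTRL heifers r was 0.791 (exact permutation p = 0.0215, adjusted 0.145, rho = 0.690, exact permutation p = 0.0694, adjusted 0.341), and without the 2 farthest heifers it was 0.351, so it rests on CTRL3 and CTRL6. For PTGDS the same covariate left the difference of HF over CTRL heifers at a log2FC of 1.16 (SE 0.15, edgeR adjusted p = 0.00718), past the threshold in edgeR. In the other comparisons of PTGDS it gave 0.77 in LF over CTRL heifers (SE 0.29, edgeR adjusted p = 0.999) and 0.32 in HF over LF heifers (SE 0.26, edgeR adjusted p = 0.996), so the size of the HF over LF difference fell. In LF over CTRL heifers it left PLA2G4A at 0.03 (SE 0.18) and PTGES at 0.48 (SE 0.43), smaller values than without it (edgeR adjusted p = 0.999 for both).

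PTGIS was marked by the spread of its CTRL heifers. In HF heifers it had 16.6 CPM at the lowest, 27.9 at the median and 57.3 at the highest. In LF heifers the lowest value was 14.3, the median 21.5 and the highest 46.2 CPM. In CTRL heifers the lowest value was 15.0, the median 27.9 and the highest 82.8 CPM. CTRL1, CTRL6 and CTRL7, with 82.8, 72.5 and 79.8 CPM, lay above every inseminated heifer, whereas CTRL2, CTRL3, CTRL5 and CTRL8 had 15.0 to 18.3 CPM and CTRL4 lay between them with 37.4 CPM. No comparison of PTGIS passed a test without a covariate. The log2FC was −0.29 for HF over CTRL heifers (SE 0.38, edgeR adjusted p = 0.732, DESeq2 adjusted p = 0.709), −0.80 for LF over CTRL heifers (SE 0.37, edgeR adjusted p = 0.874, DESeq2 adjusted p = 0.781) and 0.50 for HF over LF heifers (SE 0.26, edgeR adjusted p = 0.658, DESeq2 adjusted p = 0.568). The mean was 34.6 CPM in HF, 24.2 CPM in LF and 42.4 CPM in CTRL heifers, and neither test separated neighbours in this order.

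PTGIS varied between heifers together with markers of smooth muscle. Of 12 smooth muscle markers listed, 6 carry a name (ACTA2, MYLK, SYNPO2, SMTN, CALD1 and MYOCD, which are contractile proteins, their regulators and a muscle transcription factor). Their summed level was 741 to 6225 CPM in HF, 522 to 4779 CPM in LF and 1064 to 8694 CPM in CTRL heifers, and none of the 6 was at 0 in a whole treatment. Their mean log2 CPM was 6.51 ± 1.05 in HF (SD, n = 10), 6.35 ± 1.05 in LF (SD, n = 10) and 7.53 ± 1.36 in CTRL heifers (SD, n = 8). CTRL1, CTRL6 and CTRL7, the heifers with the most PTGIS, also had the highest marker means of all 28 (9.07, 8.82 and 8.89). In their marker means the CTRL heifers fell into 2 sets of 4, at 5.86 to 6.78 (CTRL2, CTRL3, CTRL5 and CTRL8) and at 8.24 to 9.07 (CTRL4 with the 3 above), and no correlation is given over separate sets of this size. Within the 10 HF heifers the Pearson r was 0.978 (permutation p = 2.0e-05, adjusted over 54 relations 0.00108, Spearman rho = 0.939, permutation p = 0.00024, adjusted 0.0130) and 0.964 without HF3 and HF6, the 2 heifers farthest from the median. Within the 10 LF heifers r was 0.647 (permutation p = 0.0445, adjusted 0.220, rho = 0.758, permutation p = 0.0145, adjusted 0.158) and 0.700 without LF6 and LF10.

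The sign of the PTGIS difference depended on that marker mean. With it as a covariate, the log2FC of HF over CTRL heifers was 0.66 in edgeR (SE 0.13, adjusted p = 0.170) and 0.65 in DESeq2 (SE 0.13, adjusted p = 0.00120), and that of LF over CTRL heifers was 0.26 (SE 0.26, edgeR adjusted p = 0.9999). PTGDS kept a log2FC of 1.11 (SE 0.21, edgeR adjusted p = 0.170) in HF over CTRL heifers with the same covariate, PTGES 0.98 (SE 0.26, edgeR adjusted p = 0.246), and DESeq2 called both (adjusted p = 0.00101 and 0.0425). The covariate is a mean over transcripts and not a count of cells. CTRL1, CTRL4, CTRL6 and CTRL7 had marker means of 8.24 to 9.07, above the highest HF heifer (7.90). The HF over CTRL values with this covariate thus reach beyond the range that both treatments share, and they rest on the separate CTRL sets.

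**Figure D2:**
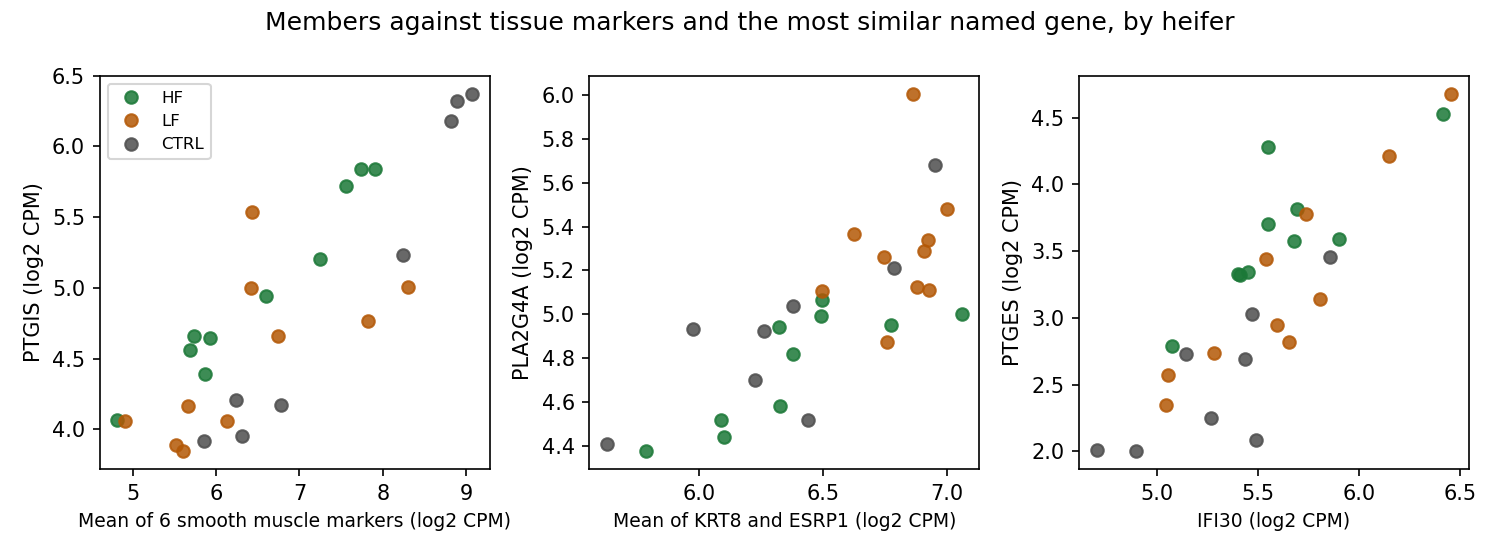
Levels of PTGIS, PLA2G4A and PTGES (y axes, log2 CPM) against the mean of 6 smooth muscle markers, the mean of KRT8 and ESRP1, and IFI30 (x axes, log2 CPM). Each point is a heifer, coloured by treatment; CTRL1, CTRL6 and CTRL7 form the upper right corner of the PTGIS panel, with marker means of 8.82 to 9.07.

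**Figure D3:**
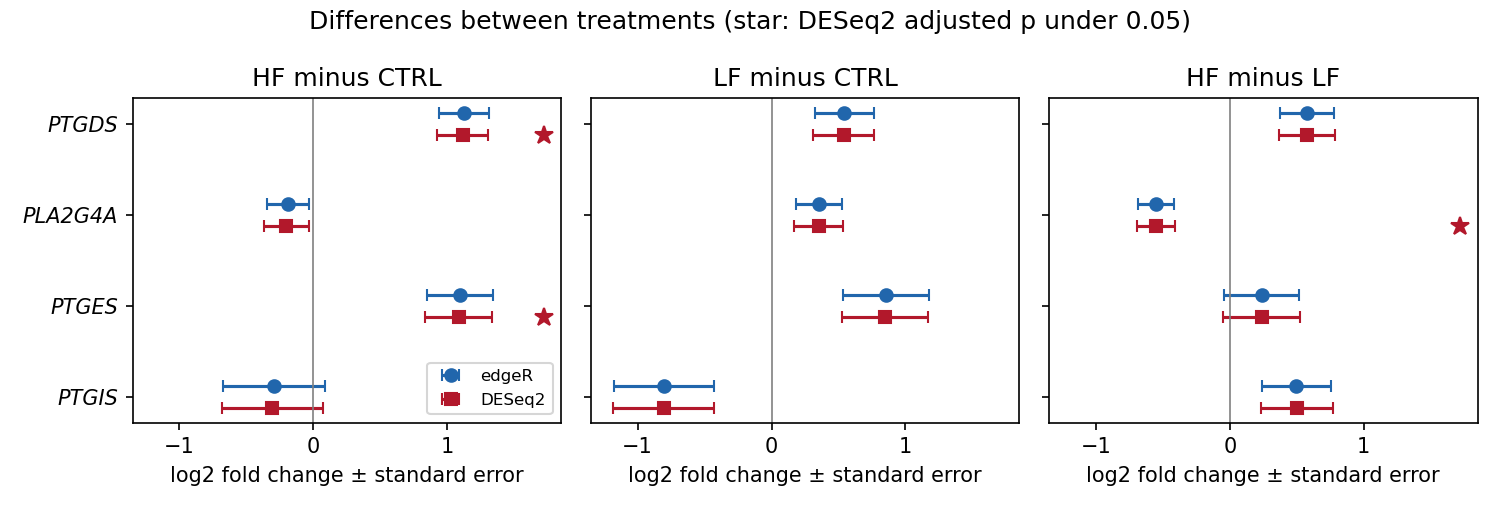
Differences of the 4 genes in the 3 comparisons, as log2FC (x axis) with bars of 1 SE, from edgeR (circles) and DESeq2 (squares). Stars stand where the DESeq2 adjusted p was under 0.05, which was so for PTGDS and PTGES in HF minus CTRL and for PLA2G4A in HF minus LF.

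Each bull mean rests on 2 heifers, which also belong to different study replicates, so it varies between bulls through those heifers too and the SDs here do not show whether bulls differ. For PTGDS in HF heifers the SD within bulls was 0.37 and that of the bull means 0.29 on the log2 scale, and in LF heifers these were 0.41 and 0.47. The largest gap of PTGDS within a bull was in LF2 and LF7, with 197 and 423 CPM. The lowest bull mean of PTGDS among HF bulls (258 CPM) lay below the highest among LF bulls (310 CPM). It lay above every CTRL heifer, which had to be so because each single HF heifer did. For PTGES the SD within bulls was 0.62 and that of the bull means 0.22 in HF heifers, and in LF heifers these were 0.82 and 0.48. The PLA2G4A means of HF bulls reached 32.6 CPM at the highest, and those of LF bulls began at 31.8 CPM. With the counts summed over the 2 heifers that shared a bull, DESeq2 called PTGDS (log2FC 1.09, adjusted p = 0.000156) and PTGES (1.06, adjusted p = 0.0173) higher in HF than in CTRL, and PLA2G4A lower in HF than in LF (−0.52, adjusted p = 0.0273). CTRL heifers had no bull and were not summed. Against CTRL, sums of 2 heifers were thus compared with single heifers, and variation between heifers was averaged on the HF side only.

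**Figure D4:**
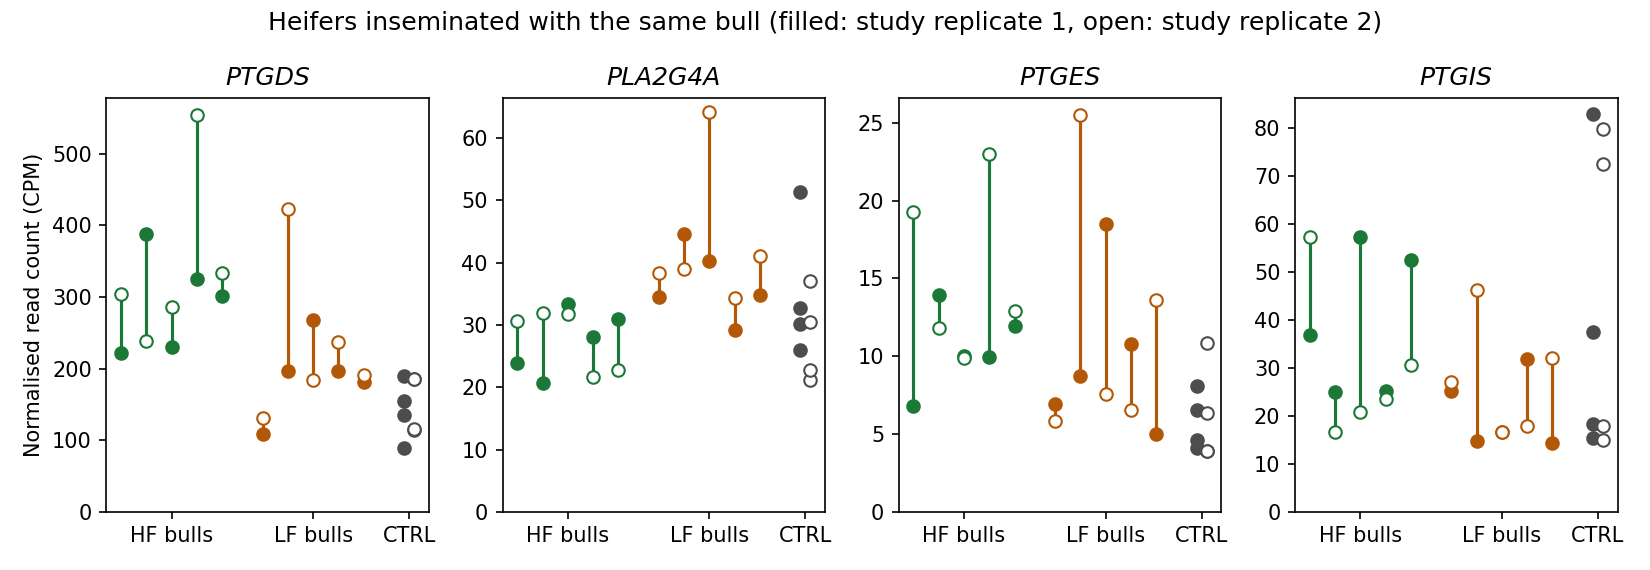
CPM (linear y axes from 0) of the 2 heifers of each bull, joined by a line, with HF bulls left, LF bulls in the middle and CTRL heifers right; filled points are study replicate 1 and open points study replicate 2. For PTGES, the largest ratio within an HF bull is that of HF1 and HF6 with 6.80 and 19.3 CPM.

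Both study replicates gave PTGDS and PTGES the same direction in HF over CTRL heifers. PTGDS averaged 293 ± 69.1 CPM in HF (SD, n = 5) and 142 ± 41.8 CPM in CTRL heifers (SD, n = 4) of study replicate 1, and 343 ± 123 CPM in HF (SD, n = 5) and 150 ± 40.2 CPM in CTRL heifers (SD, n = 4) of study replicate 2. PTGES averaged 10.5 ± 2.66 CPM in HF (SD, n = 5) and 5.84 ± 1.80 CPM in CTRL heifers (SD, n = 4) of study replicate 1, and 15.4 ± 5.51 CPM in HF (SD, n = 5) and 6.26 ± 3.28 CPM in CTRL heifers (SD, n = 4) of study replicate 2. PLA2G4A averaged 27.4 ± 5.15 CPM in HF and 36.7 ± 5.93 CPM in LF heifers of study replicate 1, and 27.8 ± 5.10 CPM in HF and 43.4 ± 11.9 CPM in LF heifers of study replicate 2 (SD, n = 5 each). With study replicate as a covariate the DESeq2 call of PLA2G4A was lost (log2FC −0.55, DESeq2 adjusted p = 0.0537). PTGIS had no fixed direction in HF over CTRL heifers, with a log2FC of 0.03 (SE 0.48) in study replicate 1 and −0.64 (SE 0.54) in study replicate 2. The interaction of treatment and study replicate was not past the threshold for any member in any of the 3 comparisons (edgeR adjusted p 0.9998 to 0.99995), and over all genes it was called for 0 genes.

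PTGDS and PTGES were high in the same heifers of both inseminated treatments. HF9 had the highest PTGDS (554 CPM) and PTGES (23.0 CPM) of the HF heifers, and LF7 the highest PTGDS (423 CPM), PTGES (25.5 CPM) and PTGIS (46.2 CPM) of the LF heifers. Within the 10 HF heifers r was 0.773 (permutation p = 0.00997, adjusted over 54 relations 0.113, rho = 0.758, permutation p = 0.0146, adjusted 0.158) and within the 10 LF heifers 0.752 (permutation p = 0.0108, adjusted 0.113, rho = 0.709, permutation p = 0.0258, adjusted 0.199), so neither passed the correction. Both rest on a pair of animals, since r was 0.358 without HF1 and HF9 and 0.283 without LF3 and LF7. Within the 8 CTRL heifers r was −0.118 (exact permutation p = 0.777, adjusted 0.968, rho = −0.143, exact permutation p = 0.752, adjusted 0.883) and −0.202 without CTRL2 and CTRL5. Of the 54 relations between members, or between members and marker means, 3 passed the correction by r, which were PTGIS with smooth muscle in HF heifers, PLA2G4A with the epithelial markers in HF heifers, and PTGIS with smooth muscle in CTRL heifers, which is not read because those heifers fall into separate sets.

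The named genes most like each member were ranked by Pearson r of log2 CPM about the treatment means over 28 heifers, among 1513 genes with a name, as a description that library, depth and tissue make-up can share. PTGES stood closest to IFI30, a thiol reductase of lysosomes in antigen-presenting cells (r = 0.85), which was the closest of all 15163 genes with or without a name. Also among the most like were CAPG, an actin-capping protein of macrophages and other motile cells (0.75), LIMD2 (0.74) and NINJ1, a membrane protein (0.67). IFI30 averaged 50.3 ± 14.1 CPM in HF (SD, n = 10), 51.8 ± 17.0 CPM in LF (SD, n = 10) and 39.9 ± 9.98 CPM in CTRL heifers (SD, n = 8), and no test called it in any comparison. Of 8 macrophage and monocyte markers, 2 carry a name, the complement genes C1QA and C1QB, with a summed level of 70.8 to 178 CPM in HF, 68.7 to 168 CPM in LF and 63.5 to 139 CPM in CTRL heifers. Within treatments, PTGES had an r with the mean of both of 0.240 in the 10 HF heifers (permutation p = 0.509, adjusted 0.767, rho = 0.285), 0.595 in the 10 LF heifers (permutation p = 0.0692, adjusted 0.292, rho = 0.564) and 0.182 in the 8 CTRL heifers (exact permutation p = 0.665, adjusted 0.876, rho = 0.262), and none passed the correction. Without the 2 heifers farthest from the median of the markers r was 0.749 in HF (without HF4 and HF10), 0.558 in LF and 0.204 in CTRL heifers, so the HF value depends on that pair. For PTGDS r with the same mean was 0.441 in the 10 HF heifers (permutation p = 0.201, adjusted 0.570, rho = 0.515), 0.760 in the 10 LF heifers (permutation p = 0.0134, adjusted 0.113, rho = 0.564) and −0.438 in the 8 CTRL heifers (exact permutation p = 0.272, adjusted 0.696, rho = −0.238). Without the 2 farthest heifers these were 0.846, 0.584 and −0.374. The part of these markers in the differences of PTGES and PTGDS between HF and CTRL heifers was not tested.

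PLA2G4A stood closest to KRT8 (0.76, the second of all genes), ZNF74 (0.59 over 28 heifers, but −0.46 in HF, 0.65 in LF and 0.85 in CTRL heifers), SLC15A1, a peptide transporter (0.58), PLEKHG6 (0.56) and RAB25, a small GTPase of epithelial cells (0.55). PTGIS stood closest to SLMAP, a membrane protein of striated and smooth muscle (0.93), BAG2, a co-chaperone (0.92), the homeobox gene MEIS2 (0.92), the bicarbonate transporter SLC4A7 (0.92) and KLHL21 (0.92). PTGDS stood closest to FBXO6, an F-box protein (0.77), CPT1C (0.74), NKIRAS1 (0.72), GSDMD, a pore-forming gasdermin (0.72), and FAIM2 (0.71). Of these 5, DESeq2 called FBXO6 (log2FC 0.37, adjusted p = 0.0269), NKIRAS1 (0.80, adjusted p = 0.00198) and GSDMD (0.42, adjusted p = 0.00388) higher in HF than in CTRL heifers, and edgeR called none of them. DESeq2 called 162 of 15459 genes (1.05%) higher in this comparison. The 5 were taken among named genes only, which favour small p-values, so their calls are a description.

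Of 62 other genes listed for prostanoid and leukotriene metabolism and their receptors, 8 carry a name. In HF against CTRL heifers DESeq2 called 2 of them higher and 1 lower, where it called 162 of 15459 genes (1.05%) higher and 166 (1.07%) lower, and edgeR called none. These 8 carry a name for the same reason as the members, which favours small p-values. All genes together were not chosen in this way, so the calls do not show whether the pathway as a set changed. ALOX12, a lipoxygenase that competes for arachidonic acid, was lower in HF than in CTRL heifers in DESeq2 (edgeR log2FC −2.52, SE 0.43, edgeR adjusted p = 0.0650, DESeq2 adjusted p = 1.64e-05), with 3.71 to 16.0 CPM in HF, 3.63 to 69.0 CPM in LF and 5.58 to 92.7 CPM in CTRL heifers. It was also lower in HF than in LF heifers in DESeq2 (edgeR log2FC −1.89, SE 0.49, edgeR adjusted p = 0.441, DESeq2 adjusted p = 0.0300). LTA4H, the hydrolase that makes leukotriene B, averaged 75.3 ± 12.1 CPM in HF (SD, n = 10), 79.3 ± 8.96 CPM in LF (SD, n = 10) and 57.4 ± 7.96 CPM in CTRL heifers (SD, n = 8). DESeq2 called it higher than in CTRL heifers both in HF (edgeR log2FC 0.39, SE 0.11, edgeR adjusted p = 0.149, DESeq2 adjusted p = 0.0364) and in LF heifers (edgeR log2FC 0.47, SE 0.10, edgeR adjusted p = 0.874, DESeq2 adjusted p = 0.0188). Every LF heifer lay above every CTRL heifer for it, and 1 of 14849 genes (0.00673%) was higher without overlap in this comparison. EPHX1, an epoxide hydrolase, averaged 223 ± 80.3 CPM in HF (SD, n = 10), 171 ± 51.1 CPM in LF (SD, n = 10) and 128 ± 31.5 CPM in CTRL heifers (SD, n = 8) and was higher in HF than in CTRL heifers in DESeq2 (adjusted p = 0.0173, edgeR adjusted p = 0.137).

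The other 5 named genes passed no test. PLA2G10, a secreted phospholipase A2, averaged 106 ± 68.2 CPM in HF (SD, n = 10), 116 ± 47.2 CPM in LF (SD, n = 10) and 70.3 ± 10.3 CPM in CTRL heifers (SD, n = 8), and 8 of 10 LF heifers lay above every CTRL heifer (log2FC 0.73, SE 0.21, edgeR adjusted p = 0.874, DESeq2 adjusted p = 0.443). The receptors for prostaglandin E (PTGER4) and prostaglandin F (PTGFR) had negative values against CTRL heifers. The log2FC of PTGER4 was −0.47 in HF (SE 0.33) and −0.88 in LF heifers (SE 0.28). That of PTGFR was −1.002 in HF (SE 1.01) and −1.97 in LF heifers (SE 0.91), with edgeR adjusted p 0.495 to 0.874 for both genes. PTGFR spread widely, with 0 to 33.5 CPM in HF, 0.231 to 14.7 CPM in LF and 0.344 to 77.0 CPM in CTRL heifers. EPHX2, another epoxide hydrolase, had 0.19 in HF and 0.41 in LF over CTRL heifers (edgeR adjusted p = 0.598 and 0.874), and PLA2G4E had too few counts for the edgeR test. Of 11 terminal synthases listed, only the 3 members among them carry a name. They carry it through the study's own LF against CTRL table or its leading genes, both of which favour small p-values. Their median log2FC was 1.10 in HF over CTRL heifers (−0.02 over all genes tested), and DESeq2 called 2 of 3 higher (1.05% of all genes). In LF over CTRL heifers the median was 0.54 (0.01 over all genes), and none of the 3 was called. All genes together were not chosen in this way, so the gap between these values does not show whether terminal synthases as a set were higher.

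**Figure D5:**
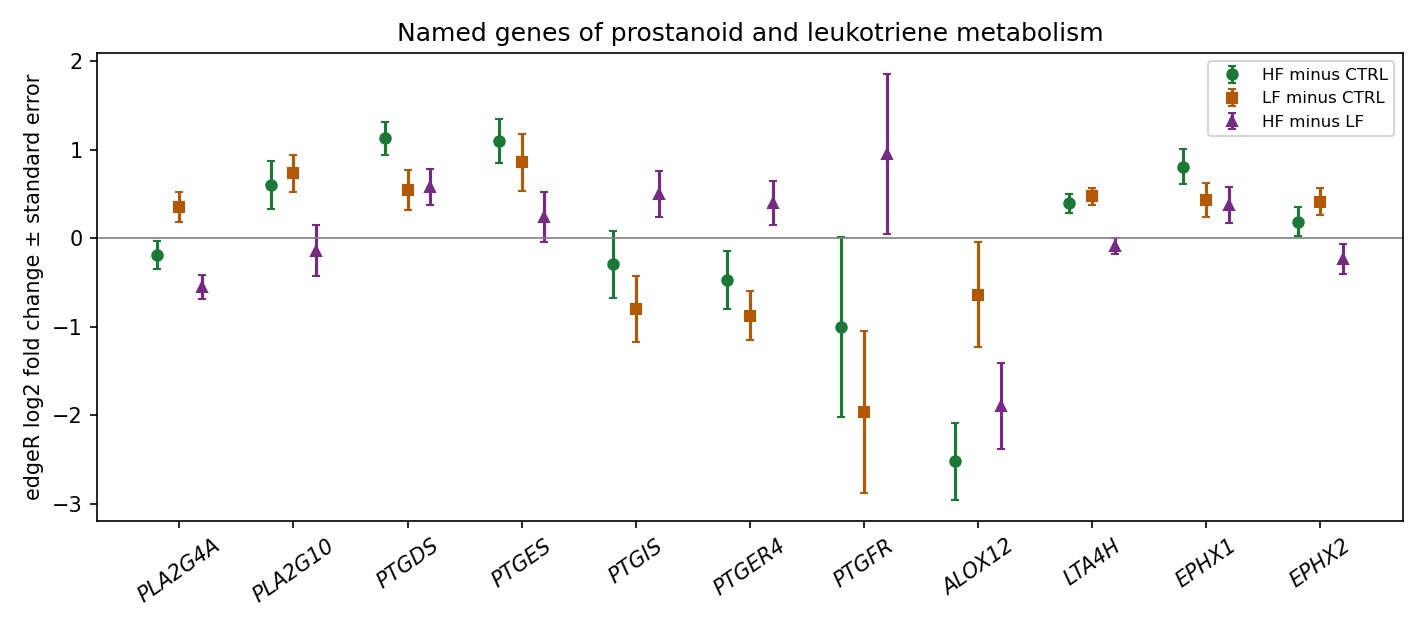
edgeR log2FC with bars of 1 SE (y axis) of the 11 named genes of prostanoid and leukotriene metabolism that passed the filter (x axis), for HF minus CTRL (circles), LF minus CTRL (squares) and HF minus LF (triangles). PTGDS and PTGES lie at 1.13 and 1.10 and ALOX12 at −2.52 in HF minus CTRL, while PLA2G4A is at −0.55 in HF minus LF.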

How the data were processed

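RNA was extracted from 1 biopsy of each of 28 heifers, and stranded mRNA libraries were sequenced as paired-end reads. Per the study's methods, BBDuk trimmed the reads and STAR placed them on ARS-UCD1.2. The tables the authors deposited hold raw counts of uniquely mapped reads per Ensembl gene, whole numbers that were not normalised. STAR 2.6.1b and Subread 1.6.3 are listed in the processing notes of the submitters, and the strand setting used in counting was not stated there. No annotated gene overlaps a member in the RefSeq gene table of ARS-UCD2.0, which was used for that alone. Treatment came from the sample labels, and bull, breed and study replicate from the animal list of the study.

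Each pair of treatments was tested on its own heifers with edgeR 4.0.16 in R 4.3.3 (TMM, filterByExpr with a minimum count of 10, quasi-likelihood test) and with DESeq2 1.42.0 at default settings as an alternative. CPM on the log2 scale used a prior count of 2. Rules for named genes were the 4 members, pathway genes called by either tool, the terminal synthases, and the 5 named genes most like each member, 1 of which is not reported here. Pairs of heifers within each treatment were checked for libraries deposited more than once, and none were found. Pairs across treatments were not checked. Permutation tests were 2-sided, with 100000 resamples for 10 heifers and all orders for 8. The members and gene lists were chosen with earlier results of these data known. A fit on protein-coding genes alone and a search of promoters were not run. The authors' own fold changes and p-values were not used, apart from the names in their table.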

Additional observations from a re-analysis of the deposited data

Results flagged for a closer look

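A heifer stood apart from the rest of its treatment for 3 of 12 combinations of gene and treatment, by Dixon's test on CPM. The test flags about 1 in 20 groups by chance only where values are normally distributed. CPM on a linear scale can be skewed towards high values, and all 3 flags were at the high end. The test was not run on log2 CPM, so the 3 flags are not set against that rate. HF9 had 554.4 CPM of PTGDS, where the next HF heifer had 387 CPM. LF7 had 422.7 CPM of PTGDS, where the next LF heifer had 267 CPM. LF8 had 64.2 CPM of PLA2G4A, where the next LF heifer had 44.6 CPM. HF9 also had the highest PTGES of the HF heifers, and LF7 the highest PTGES and PTGIS of the LF heifers. Without HF9 the DESeq2 log2FC of PTGDS in HF over LF heifers was 0.45, and without LF7 it was 0.74.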

How the results depend on the processing

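The direction held in each of 18 alternative settings for 9 of the 12 member comparisons, and the exceptions were PTGIS in HF and LF against CTRL and PLA2G4A in HF against CTRL. PTGDS in HF over CTRL heifers passed the threshold in 8 of 18 settings, as DESeq2 alone (log2FC 1.12), with all 28 heifers in one fit (1.12), with study replicate (1.11), breed (1.07), the smooth muscle mean (1.10) or the epithelial mean (1.14) as a covariate and with bulls summed (1.09), and in edgeR with the epithelial mean (1.16). PTGES passed in 6 of 18, all by DESeq2, alone (1.09), with 28 heifers (1.09), study replicate (1.06), the smooth muscle mean (0.97), bulls summed (1.06) and the epithelial mean (1.09). PLA2G4A in HF against LF passed in 3 of 18, by DESeq2 alone (−0.55), with bulls summed (−0.52) and with the muscle covariate (−0.56), and DESeq2 lost it with study replicate (adjusted p = 0.0537), breed (0.121) and 28 heifers (0.210). PTGIS in HF over CTRL changed sign in study replicate 1 alone (0.0333), with the replicate block (0.01) and with the smooth muscle mean (0.66 in edgeR, 0.65 in DESeq2). PTGIS in LF over CTRL changed sign with the smooth muscle mean (0.26 in edgeR, 0.26 in DESeq2) and with the epithelial mean (0.30 in edgeR, 0.29 in DESeq2). PLA2G4A in HF over CTRL changed sign in study replicate 2 alone (0.0039). The cause of these changes was not tested. The DESeq2 fits with a covariate, bulls summed or 28 heifers, and the epithelial mean, were chosen after seeing the data.

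Genes called in HF against CTRL heifers numbered 0 in edgeR and 328 in DESeq2, and in DESeq2 114 with 28 heifers, 322 with study replicate, 22 with breed, 111 with the smooth muscle mean, 76 with bulls summed and 587 with the epithelial mean, which gave 1 in edgeR. In LF against CTRL they were 0 in edgeR and 2 in DESeq2, and there 3, 3, 4, 1, 0 and 2 in the same settings. In HF against LF they were 0 in edgeR and 27 in DESeq2, and there 8, 23, 5, 45, 226 and 3.

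With 1 heifer left out, the called genes ranged from 0 to 91 in edgeR and 91 to 869 in DESeq2 for HF against CTRL, 0 to 0 in edgeR and 0 to 16 in DESeq2 for LF against CTRL, and 0 to 0 in edgeR and 7 to 155 in DESeq2 for HF against LF. The edgeR count was 91 without CTRL2, 3 without CTRL6 and 0 otherwise, and the DESeq2 count of HF against CTRL was 869 without CTRL2, 637 without CTRL7 and 91 without CTRL4. In these fits the log2FC of HF over CTRL was 0.99 to 1.19 for PTGDS, 0.95 to 1.27 for PTGES, −0.27 to −0.05 for PLA2G4A and −0.43 to −0.09 for PTGIS. That of LF over CTRL was 0.37 to 0.62, 0.62 to 1.03, 0.24 to 0.49 and −0.96 to −0.59 in the same order of genes. That of HF over LF was 0.45 to 0.74 for PTGDS, 0.11 to 0.47 for PTGES, −0.59 to −0.45 for PLA2G4A and 0.39 to 0.65 for PTGIS.

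The replicate numbers do not pair heifers, since deviations of same-numbered heifers correlated at −0.462 to 0.397 over the 3 comparisons, with 5 of 8, 4 of 8 and 5 of 10 pairs over 0.1. With the replicate block PTGDS in HF over CTRL had a log2FC of 0.995 (edgeR adjusted p = 0.358), and no gene was called. PTGES, with the fewest reads, is the member that depth limits most.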
